A study of Mus musculus with 3 samples.

Results

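Ezh1, Ezh2, Eed, Suz12, Jarid2, Mtf2, Rnf2, Ring1, Cbx7 and Pcgf6 encode subunits of the Polycomb repressive complexes PRC2 and PRC1. They are 10 of the 50043 gene IDs in a table of RNA levels from mouse embryonic stem cells. They were chosen by symbol, and each symbol matched 1 Ensembl ID. The rule uses no measured value, but earlier results of these data were known when the genes were chosen. The cells were of the KH2 line, a mouse embryonic stem cell line engineered for doxycycline-inducible transgenes, and carried an inducible knockout of Pold3, which encodes a small subunit of the replicative polymerase delta. The study sequenced 1 library of total RNA from each of the passages P0, P1 and P2 and asked how RNA levels differ between passages. All 3 groups share the line and the knockout allele. The labels name no inducer, give no time of induction, describe no unedited control, and do not say whether the cells were 1 clone or pooled cultures. Because each passage is 1 library, differences are given without a test or a p-value.

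PRC2 places methyl groups on lysine 27 of histone H3. EZH2 or its relative EZH1 is the catalytic subunit, EED binds the finished mark and stimulates the enzyme, SUZ12 is the scaffold, and accessory subunits such as JARID2 and MTF2 bring the complex to CpG-rich promoters. PRC1 is a ubiquitin ligase for histone H2A built on RING1B (gene Rnf2) or RING1A (gene Ring1). Its canonical form carries a CBX protein that reads the PRC2 mark, and its variant forms carry other partners, among them PCGF6. In embryonic stem cells both complexes sit at the promoters of silent developmental regulators.

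The promoters of 4 of these genes are shown, picked after their values were seen. Eed and Cbx7 had the lowest levels at P2 relative to P0. Suz12, Eed's partner in the PRC2 core, and Ezh2, the main catalytic gene, differed less. Jarid2, Rnf2, Ring1 and Pcgf6, which are not shown, differed less than Ezh2. Each window runs from 250 bases before to 50 bases after the RefSeq transcription start on build GRCm38.p6, 5′ to 3′ on the gene's strand, and the windows are Ezh2 chr6:47594981-47595280 on the minus strand, Eed chr7:89980927-89981226 on the minus strand, Suz12 chr11:79992856-79993155 on the plus strand and Cbx7 chr15:79932597-79932896 on the minus strand. Capitals mark matches, on either strand, to 3 E2F-type octamers (TTTCCCGC, TTTGGCGC, TTTCGCGC) and to the CCAAT box.
Ezh2: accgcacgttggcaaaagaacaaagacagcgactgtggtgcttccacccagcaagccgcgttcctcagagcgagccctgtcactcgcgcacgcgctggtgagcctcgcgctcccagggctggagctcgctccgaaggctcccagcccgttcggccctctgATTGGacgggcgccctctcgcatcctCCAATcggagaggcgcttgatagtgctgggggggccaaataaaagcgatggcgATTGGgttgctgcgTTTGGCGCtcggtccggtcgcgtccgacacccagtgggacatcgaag
Eed: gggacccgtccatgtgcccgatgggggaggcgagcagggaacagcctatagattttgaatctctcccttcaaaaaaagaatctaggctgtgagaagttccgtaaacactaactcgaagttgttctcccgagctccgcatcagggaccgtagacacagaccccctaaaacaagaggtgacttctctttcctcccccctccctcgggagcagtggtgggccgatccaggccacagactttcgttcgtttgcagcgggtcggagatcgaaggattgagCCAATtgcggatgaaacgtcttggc
Suz12: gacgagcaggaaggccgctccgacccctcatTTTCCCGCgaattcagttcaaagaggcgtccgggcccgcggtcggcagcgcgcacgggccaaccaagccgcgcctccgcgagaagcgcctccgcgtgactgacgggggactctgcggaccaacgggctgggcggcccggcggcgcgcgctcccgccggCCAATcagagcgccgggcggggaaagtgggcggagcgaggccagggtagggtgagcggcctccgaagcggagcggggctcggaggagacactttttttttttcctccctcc
Cbx7: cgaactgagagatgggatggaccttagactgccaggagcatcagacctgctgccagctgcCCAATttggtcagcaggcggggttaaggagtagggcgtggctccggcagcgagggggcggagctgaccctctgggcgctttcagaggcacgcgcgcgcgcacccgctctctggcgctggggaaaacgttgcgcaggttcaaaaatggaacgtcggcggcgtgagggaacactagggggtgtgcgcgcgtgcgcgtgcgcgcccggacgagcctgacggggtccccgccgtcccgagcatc

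RefSeq gave 12 windows for the 10 genes, with an additional start each for Jarid2 and Mtf2. Their median GC content was 63.5%, against 52.7% over all 32817 mouse windows, and their median number of CpG dinucleotides was 27 against 7. The ratio of observed to chance CpG had a median of 0.892 in these windows and of 0.383 in all, and the second Mtf2 window was the lowest of the 12 at 0.13. An E2F-type octamer stood in 2 of 12 windows, those of Ezh2 (first base at 3, counted from 0 at the start) and Suz12 (first base at -219), and in 1.8% of all windows. Jarid2, Rnf2, Ring1 and Pcgf6, which differed less than Ezh2 between P0 and P2, had no such match. The CCAAT box was present in 7 of 12 (58.3%) and in 37.4% of all windows, and Ezh2 and the second Mtf2 window had 3 copies each. The ETS-type octamer CCGGAAGT and the E-box CACGTG had no match in the 12 windows, and were found in 3.9 and 7.1% of all. TATAAA was found in 1 of the 12, a Jarid2 window, and in 13.6% of all. These matches describe letters in the windows and say nothing of which factor binds.

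Library totals, inferred from the deposited values, were 23213528 (P0), 18059914 (P1) and 22405670 (P2) reads. Pold3 was at 49.2, 13.0 and 11.6 FPKM, and the targeted gene thus fell 3.78-fold by P1 and 4.23-fold by P2. FPKM is a level, reads per kilobase of transcript scaled to the library's total reads. All 9 embryonic stem cell markers checked, Pou5f1, Nanog and Sox2 among them, were at 118 FPKM or more in each library. At P2 against P0, 4 of them were higher and 5 lower by the counting interval described below, beside 39.6 and 25.7% of all genes, from Nanog at 1.34-fold higher (interval 1.30 to 1.38) to Esrrb, at 221, 127 and 118 FPKM, at 1.87-fold lower (interval 1.82 to 1.93). Of 11 fibroblast feeder markers 3, 4 and 4 reached 1 FPKM, and their summed level was 8.80, 20.9 and 23.2 FPKM, with Postn listed at 0 in all 3 libraries. Fewer cells of a type and less RNA per cell cannot be told apart in such bulk samples.

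All 10 Polycomb genes were expressed at every passage. Eed was the most abundant at P0 with 346 FPKM, followed by Jarid2 at 310, Mtf2 at 117, Suz12 at 110, Cbx7 at 89.7, Rnf2 at 85.7, Ezh2 at 78.9, Pcgf6 at 38.4, Ezh1 at 16.5 and Ring1 at 8.89. Among neighbours in that order the counting intervals (exact 95% Poisson intervals on the reads) overlapped for Cbx7 and Rnf2 only. At P1 they overlapped for Jarid2 and Eed and for Rnf2 and Cbx7, and at P2 for Ezh2 and Cbx7. Jarid2 stood first at P1 and P2, and Cbx7 moved from place 5 at P0 to place 7 at P2. Ring1, the least abundant, was still above 39.6% of genes with at least 1 FPKM at P0, and Eed was above 97.5% of them. The order depends on the transcript length behind FPKM. With the longest annotated transcript as the length, Ezh2 moved from place 7 to 5, Cbx7 from 5 to 8 and Pcgf6 from 8 to 7 at P0, and the other 7 genes kept their places. With those lengths Eed was first in all 3 libraries, at 136, 113 and 103 against 80.0, 77.9 and 77.6 for Jarid2, and Cbx7 was in place 8 in all 3, so neither change of place between passages held.

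**Figure D1:**
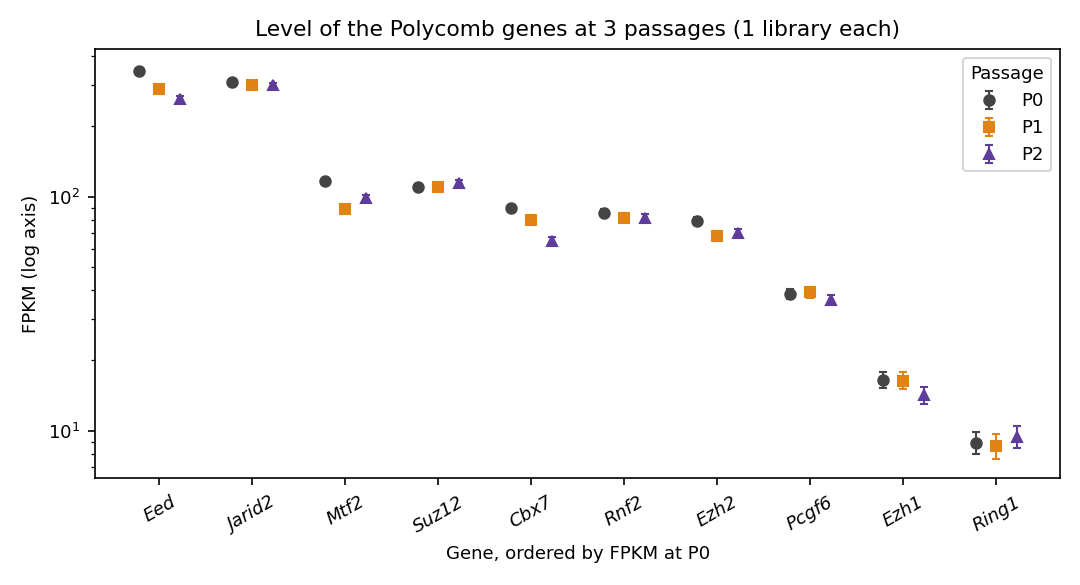
Level of each of the 10 Polycomb genes in FPKM (log axis) in the libraries of passages P0, P1 and P2, 1 library each, with exact 95% Poisson intervals that cover counting error only. Eed and Cbx7 step down from P0 to P1 to P2, while Suz12 stays between 110 and 115 FPKM and Jarid2 between 300.1 and 310.

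Between passages the 10 genes differed little. A gene was taken to rise or fall when log2(FPKM + 1) differed by at least 1 between libraries, a 2-fold step, among genes with at least 1 FPKM in 1 or both. By this rule 0 of 10 rose or fell at P1 against P0, where 4.67% of 13288 genes did, 0 of 10 at P2 against P0, where 7.88% of 13472 did, and 0 of 10 at P2 against P1, where 1.66% of 13585 did. For 10 genes these background shares correspond to less than 1 gene, so the absence of calls does not set the Polycomb genes apart. The smaller differences below 2-fold are given with exact conditional 95% intervals on the ratio of the reads of 2 libraries. These intervals cover counting error only and compare the libraries, not the conditions.

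By such an interval, 0 of the 10 genes were higher and 5 were lower at P1 than at P0 (Cbx7, Eed, Ezh2, Jarid2 and Mtf2). Of all genes 34.5% were higher and 22.6% lower, 57% in either direction. At P2 against P0, 1 gene was higher (Suz12) and 7 were lower (Cbx7, Eed, Ezh1, Ezh2, Jarid2, Mtf2 and Rnf2), and of all genes 39.6% were higher and 25.7% lower, 65.3% in either direction. At P2 against P1, 2 were higher (Mtf2 and Suz12) and 4 were lower (Cbx7, Eed, Ezh1 and Pcgf6), beside 24.1% higher and 18.9% lower among all genes, 43% in either direction. The comparisons at P1 and P2 share the P0 library. The median difference of the 10 genes in log2(FPKM + 1) was -0.06 at P1 against P0 and -0.13 at P2 against P0, beside 0.06 and 0.07 over all genes compared. At P2 against P1 it was -0.01, beside 0.02 over all genes. The 6 PRC2 genes had a median of -0.19 at P2 against P0 and the 4 PRC1 genes of -0.08.

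A scaling factor for the whole library shifts every ratio alike, and the narrowest intervals were sensitive to it. With median-of-ratios scaling, the P2 to P0 ratios were multiplied by 0.967. Suz12 then no longer lay above 1, Pcgf6 lay below it, and the counts were 0 higher and 8 lower, with 35.5% of all genes higher and 29.7% lower. With libraries rescaled to a sum of 1000000, the Rnf2 interval spanned 1 and the counts were 1 higher and 6 lower. In that setting 40.3% of all genes were higher and 24.9% lower. At P2 against P1, Suz12 was no longer higher with median-of-ratios scaling, and Pcgf6 was no longer lower with rescaling. At P1 against P0, Rnf2 joined the lower genes with median-of-ratios scaling, which gave 6. Under that scaling 30.4% of all genes were higher and 26.9% lower. Cbx7, Eed, Ezh1, Ezh2, Jarid2 and Mtf2 were lower at P2 than at P0 under all 3 scalings.

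**Figure D2:**
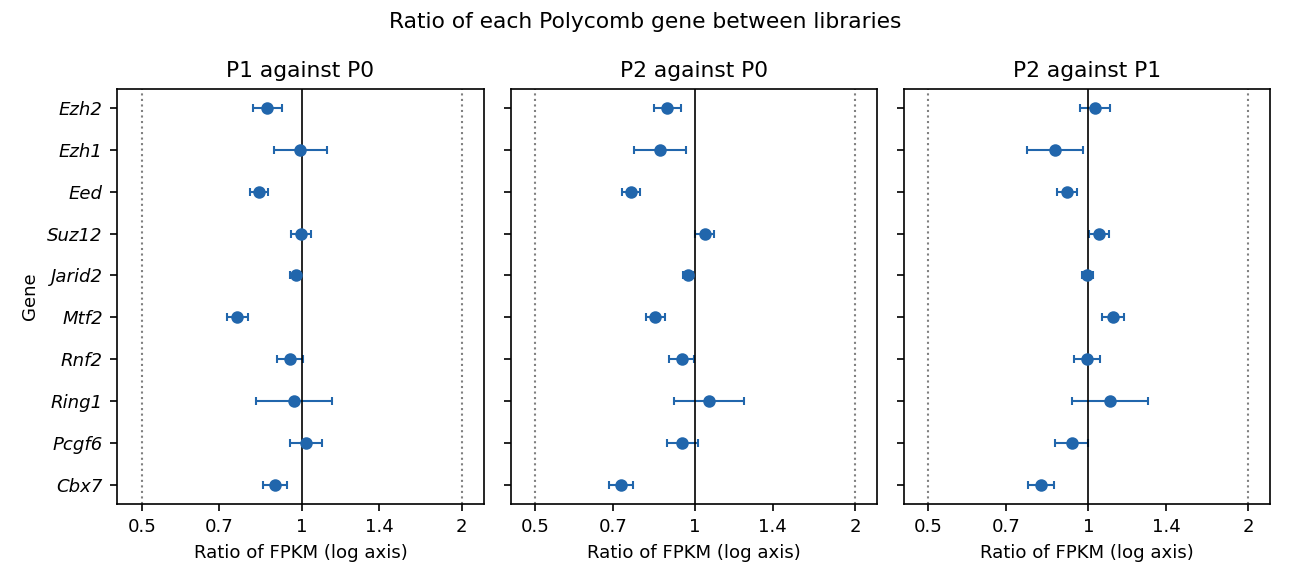
Ratio of FPKM between libraries for each Polycomb gene (log axis) for the 3 pairs of libraries (P1 over P0, P2 over P0, P2 over P1), with exact 95% counting intervals. The solid line marks no difference and the dotted lines a 2-fold difference, which no gene reaches. Cbx7 and Eed lie farthest to the left at P2 against P0 and Mtf2 at P1 against P0.

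Ezh2, on chromosome 6, encodes the main methyltransferase of dividing cells. Its level was 78.9 FPKM at P0, 68.0 at P1 and 70.0 at P2, from 2559, 1716 and 2192 reads. The P0 library was the highest and the other two were close together, with a P2 to P1 ratio of 1.03 (interval 0.966 to 1.10). Relative to P0, Ezh2 was 1.16-fold lower in the P1 library (interval 1.09 to 1.23) and 1.13-fold lower in the P2 library (interval 1.06 to 1.19). Of all genes, 64.4% had a larger absolute difference in log2(FPKM + 1) between P2 and P0.

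Ezh1, on chromosome 11, encodes the catalytic subunit more typical of non-dividing cells. It measured 16.5, 16.4 and 14.2 FPKM, with P2 the lowest. The ratio of P1 to P0 was 0.994 (interval 0.886 to 1.12), and at P2 Ezh1 was 1.16-fold lower than at P0 (interval 1.04 to 1.30). Ezh2 exceeded Ezh1 4.78-fold in FPKM at P0, 4.14-fold at P1 and 4.93-fold at P2, a share of 82.7, 80.5 and 83.1% of their sum. The change of that ratio from P0 to P2, taken from the reads of both genes so that library size does not enter, was 1.03 with an interval of 0.909 to 1.17. Between P0 and P1 that ratio changed by 0.867 (interval 0.761 to 0.988), and between P1 and P2 by 1.19 (interval 1.04 to 1.36). Each of the catalytic genes was lower at P2 than at P0 by its own interval.

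Eed, on chromosome 7, encodes the subunit that binds trimethylated lysine 27. It was at 346 FPKM at P0, 288 at P1 and 263 at P2, from 6543, 4234 and 4788 reads, and each passage was lower than the one before. The step from P0 to P1 was 1.20-fold downward (interval 1.16 to 1.25) and that from P1 to P2 1.10-fold (interval 1.05 to 1.14). Over both steps Eed was 1.32-fold lower (interval 1.27 to 1.37). Of all genes compared, 9.2% had a lower difference between P2 and P0, and 32.6% a larger absolute one. About 6.82% of its exonic bases overlap E230029C05Rik on the opposite strand, whose reads cannot be told apart from those of Eed if the counting ignored strand.

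Suz12, on chromosome 11, encodes the scaffold without which the complex does not assemble. Its levels of 110, 110 and 115 FPKM, from 4669, 3625 and 4702 reads, were the least variable of the PRC2 core. The ratio of P1 to P0 was 0.998 (interval 0.955 to 1.04). At P2 it was 1.04-fold higher than at P0, with an interval of 1.002 to 1.09 that reached almost to 1. The Eed to Suz12 ratio was therefore 3.15 at P0, 2.63 at P1 and 2.29 at P2, and the change from P0 to P2 was 0.727 (interval 0.688 to 0.768). The Ezh2 to Suz12 ratio went from 0.718 to 0.620 and 0.611, a change from P0 to P2 of 0.851 (interval 0.793 to 0.913). Against their own scaffold gene, both Eed and Ezh2 were lower after P0, and these pair ratios do not depend on how the libraries were scaled.

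Jarid2, on chromosome 13, encodes an accessory subunit that helps recruit PRC2 in embryonic stem cells. It was at 310, 301 and 300.1 FPKM, from 15516, 11753 and 14517 reads, the largest read numbers of the 10 genes. The depth gives narrow intervals: Jarid2 was 1.03-fold lower at P2 than at P0 (interval 1.01 to 1.06). The ratio of P2 to P1 was 0.996 (interval 0.972 to 1.02), and its sign depended on the scaling. With median-of-ratios scaling the difference in log2(FPKM + 1) at P2 against P0 was -0.09 in place of -0.04, and at P1 against P0 -0.08 in place of -0.04. Jarid2 thus differed by a few percent between libraries, and 89.7% of all genes had a larger absolute difference between P2 and P0.

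Mtf2, on chromosome 5, encodes a Polycomb-like protein that ties PRC2 to unmethylated CpG islands. It measured 117 FPKM at P0, 88.7 at P1 and 98.9 at P2, from 5198, 3058 and 4227 reads. P1 was the lowest library and P2 lay between the others. At P1 it was 1.32-fold lower than at P0 (interval 1.26 to 1.38), the largest P1 to P0 difference of the 10 genes, and 5.9% of all genes had a lower one. From P1 to P2 the level was 1.11-fold higher (interval 1.06 to 1.17), which left P2 1.19-fold below P0 (interval 1.14 to 1.24). The Jarid2 to Mtf2 ratio was 2.64, 3.40 and 3.04 at the 3 passages, and its change from P0 to P1 was 1.29 (interval 1.22 to 1.36). With the longest transcripts the ratio was 1.45, 1.87 and 1.67. Of the exonic bases of Mtf2, 6.93% overlap Tmed5 on the opposite strand.

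Rnf2, on chromosome 1, encodes the main ubiquitin ligase subunit of PRC1. It was at 85.7, 81.4 and 80.9 FPKM, from 2841, 2098 and 2589 reads, with P0 slightly the highest. At P2 it was 1.06-fold lower than at P0, with an interval of 1.004 to 1.12. Ring1, its paralogue on chromosome 17, measured 8.89, 8.61 and 9.46 FPKM from 341, 257 and 350 reads. The Ring1 ratio of P2 to P0 was 1.06 with an interval of 0.913 to 1.24, and its sign depended on the scaling. Rnf2 made up 90.6, 90.4 and 89.5% of the summed level of the pair, and its excess over Ring1, 9.64-fold at P0 and 8.56-fold at P2, changed by a factor of 0.888 (interval 0.755 to 1.04).

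Cbx7, on chromosome 15, encodes the CBX protein best known in PRC1 of undifferentiated embryonic stem cells. Its level was 89.7 FPKM at P0, 79.8 at P1 and 65.1 at P2, from 3578, 2478 and 2507 reads, lower at each passage. Cbx7 was 1.12-fold lower in the step from P0 to P1 (interval 1.07 to 1.18) and 1.23-fold lower in that from P1 to P2 (interval 1.16 to 1.30). Over both steps the factor was 1.38 (interval 1.31 to 1.45), the largest difference of the 10 genes. Of all genes compared, 7.2% had a lower difference between P2 and P0 and 27.7% a larger absolute one, so a change of this size was common among all genes. The Cbx7 to Rnf2 ratio was 1.05, 0.981 and 0.804, and its change from P0 to P2 was 0.769 (interval 0.714 to 0.828). With the longest transcripts as lengths the ratio was 0.666, 0.624 and 0.512, so which of the genes is higher at P0 depends on the length, while the change between libraries does not.

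Pcgf6, on chromosome 19, encodes the PCGF subunit of a variant PRC1 that also holds MGA, MAX and E2F6. It measured 38.4, 39.1 and 36.4 FPKM. The ratio of P2 to P0 was 0.946 with an interval of 0.886 to 1.01, and that of P1 to P0 was 1.02 (interval 0.950 to 1.09), whose sign depended on the scaling. The Pcgf6 to Rnf2 ratio was 0.448 at P0 and 0.450 at P2, a change of 1.002 (interval 0.920 to 1.09). With the longest transcripts it was 0.745 and 0.747. Its reads, 1872, 1482 and 1710, are less certain than those of the other 9 genes, because the length behind its FPKM was resolved only as a multiple of 1049 bases. The nearest multiple to the mean annotated transcript, 2098 bases, was used, and with 1049 the intervals are wider. The ratio of P2 to P1, 0.930 with an upper limit of 0.998, then had an interval of 0.842 to 1.03 that spans 1, so the call of Pcgf6 as lower in that comparison rests on the length.

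Paralogues compete for the same places in the complexes, and the shares of their summed FPKM show where 7 of the 10 genes stood (Eed, Suz12 and Jarid2 are not in the families compared). In the PCGF family of 6, Pcgf6 held 25.0, 25.9 and 24.7% at P0, P1 and P2. Pcgf2 went from 35.9 to 30.4 and 26.1%, and Pcgf3 from 25.4 to 31.8 and 35.9%. Pcgf2 was the leading gene of the family at P0 and Pcgf3 at P1 and P2. That order rests on the transcript lengths: with the longest transcripts Pcgf2 held 39.1, 34.2 and 30.6% and Pcgf6 34.6, 37.2 and 36.9%, which made Pcgf6 the leading gene at P1 and P2, with 2098 bases taken as the length behind its FPKM. With these lengths Pcgf3 reached only 21.5% at P2, although its share still went up from 14.1%.

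Of the summed FPKM of 4 CBX genes Cbx7 held 57.8, 57.2 and 53.0%, followed by Cbx6 at 27.2, 28.1 and 29.0% and Cbx2 at 14.8, 14.4 and 17.0%. Cbx8 held at most 1.02% at any passage. Relative to Cbx2, Cbx7 was lower at P2 than at P0 by a factor of 0.794 (interval 0.720 to 0.876). Phc1, which encodes a polymerizing subunit of canonical PRC1, held 90.8, 90.0 and 85.8% of the PHC family, and Phc2 8.13, 9.0 and 13.1%. In the Polycomb-like family Mtf2 held 93.6, 89.0 and 90.5%, with Phf19 at 4.74, 8.43 and 7.01%. The main gene of the EZH, RING, CBX, PHC and Polycomb-like families was thus the same at all 3 passages, with either set of lengths.

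**Figure D3:**
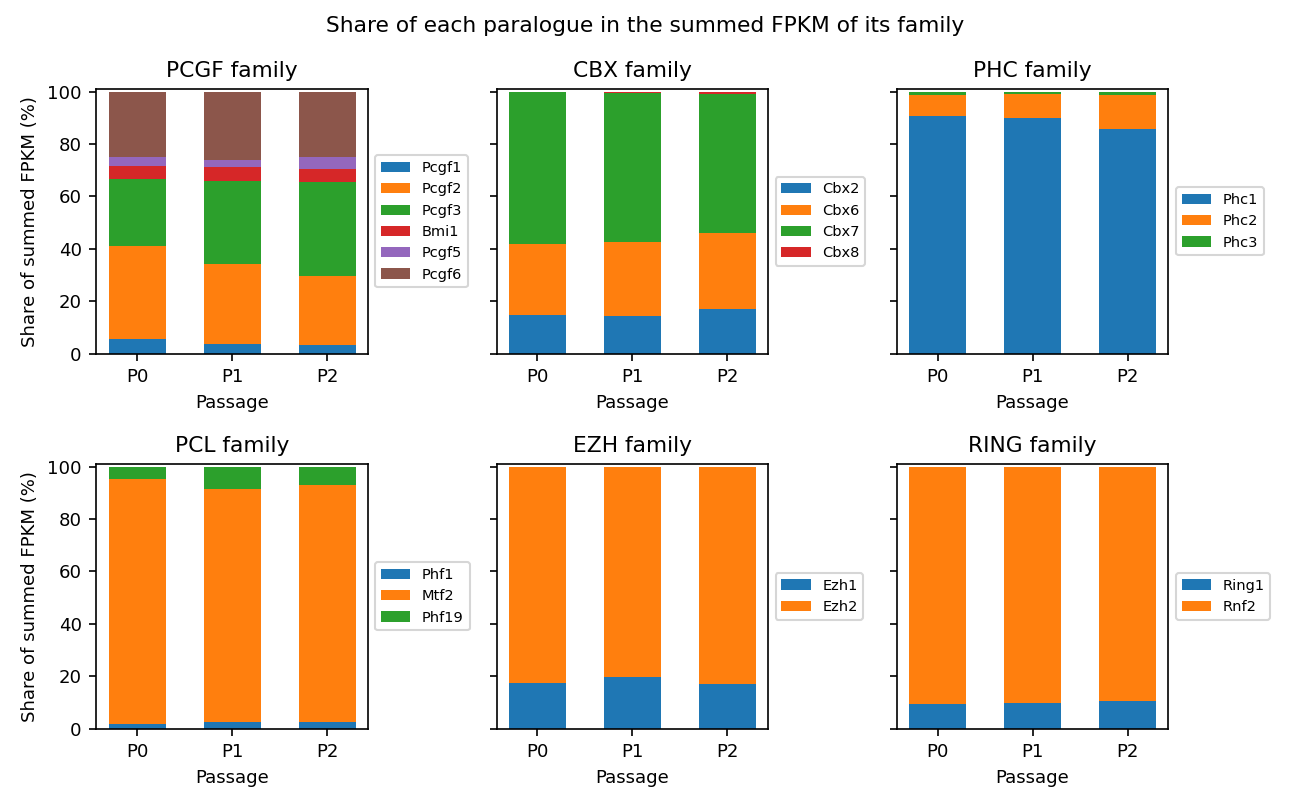
Share of each paralogue in the summed FPKM of its family (percent, stacked bars) at passages P0, P1 and P2, 1 library each, for the PCGF, CBX, PHC, Polycomb-like (PCL), EZH and RING families. Pcgf2 goes from 35.9 to 26.1% and Pcgf3 from 25.4 to 35.9%, while Ezh2 and Rnf2 hold over 80% and over 89% of their pairs.

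A wider list of 60 Polycomb genes put the 10 beside their partners. Of these, 59 were in the table (Ezhip was not matched), and 54 were compared between P0 and P1 and 55 in each of the other two comparisons. By the 2-fold rule 0 rose and 0 fell in each comparison, beside 4.67, 7.88 and 1.66% of all genes. By the counting interval, 12 were higher and 24 lower at P1 against P0 and 19 higher and 25 lower at P2 against P0, with medians of -0.07 and -0.06 in log2(FPKM + 1). Of all genes, 34.5% were higher and 22.6% lower at P1 against P0, and 39.6% and 25.7% at P2 against P0. At P2 against P1, 15 were higher and 12 lower, beside 24.1% and 18.9%. Without the 10 genes, 18 of 45 were higher and 18 lower at P2 against P0, with a median of -0.001.

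In the PRC2 core, Rbbp4 and Rbbp7 encode histone-binding subunits that other chromatin complexes share. Rbbp4 was at 170, 180 and 184 FPKM, 1.08-fold higher at P2 than at P0 (interval 1.05 to 1.11), and Rbbp7 was 1.07-fold lower (interval 1.04 to 1.11). Of the exonic bases of Rbbp4, 18.05% overlap genes on the opposite strand. Of the 5 measured PRC2 accessory genes other than Jarid2 and Mtf2, 4 were higher at P2 than at P0 by the interval and 0 were lower, beside 39.6 and 25.7% of all genes. Epop, whose protein links PRC2 to Elongin BC, had 409, 510 and 621 FPKM, higher at each passage, a P2 to P0 ratio of 1.52 (interval 1.49 to 1.54). The Epop to Mtf2 ratio was 3.49, 5.75 and 6.28, and its change from P0 to P2 was 1.80 (interval 1.72 to 1.88). It was the largest change among the 13 pairs compared, which were listed by hand. This pair sets the accessory gene with the largest difference against Mtf2, which was lower. With the longest transcripts the ratio was 7.42, 12.2 and 13.4. Phf19, a Polycomb-like paralogue of Mtf2, was at 5.94, 8.41 and 7.66 FPKM, 1.29-fold higher at P2 than at P0 (interval 1.10 to 1.52). Phf1 measured 2.08, 2.60 and 2.70 FPKM, and 43.8% of its exonic bases overlap genes on the opposite strand, so its values are uncertain.

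Among the PCGF genes Pcgf1, whose protein pairs with KDM2B and BCOR, was at 8.27, 5.81 and 5.01 FPKM and 1.65-fold lower at P2 than at P0 (interval 1.23 to 2.22). Pcgf2, which encodes MEL18 of canonical PRC1, was at 55.3, 45.8 and 38.4 FPKM and 1.44-fold lower (interval 1.34 to 1.55). Pcgf3 and Pcgf5, both of variant PRC1, were 1.36-fold higher (interval 1.28 to 1.44) and 1.34-fold higher (interval 1.10 to 1.64). The 2 genes lower and the 2 genes higher at P2 split the family, with Bmi1 at 7.76 and 7.68 FPKM at P0 and P2.

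In canonical PRC1, Cbx8 was at 0.343, 0.373 and 1.26 FPKM from only 13, 11 and 46 reads, a ratio of P2 to P0 of 3.67 with an interval of 1.95 to 7.40. Scml2, which encodes a sex-comb family protein, was at 0.575, 1.41 and 1.61 FPKM from 44, 84 and 119 reads, a ratio of 2.80 (interval 1.97 to 4.06). Both ratios exceed 2 in FPKM itself, yet neither gene reached the 2-fold rule on log2(FPKM + 1), which understates low genes. Both were below 1 FPKM at P0 and entered the comparison only through P2, so a higher value was built into their choice and into the count of genes higher at P2. Phc2 was at 23.6, 25.2 and 35.7 FPKM, 1.51-fold higher at P2 than at P0 (interval 1.39 to 1.65), and Phc1 was 1.13-fold lower (interval 1.10 to 1.16).

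Of the 15 variant PRC1 genes, 6 were higher and 5 lower at P2 than at P0 by the interval, shares near the 39.6 and 25.7% of all genes. Kdm2b, which encodes the subunit that binds unmethylated CpG islands, was at 66.2, 100.1 and 94.6 FPKM, 1.51-fold above P0 at P1 (interval 1.44 to 1.59) and 1.43-fold above it at P2 (interval 1.37 to 1.50). Overlap with other genes covers 8.74% of the exonic bases of Kdm2b. Yaf2, a RYBP paralogue, was at 5.56, 3.22 and 3.12 FPKM, 1.78-fold lower at P2 (interval 1.43 to 2.24). Auts2, of the PCGF3 and PCGF5 complexes, was 1.47-fold lower (interval 1.31 to 1.65), and E2f6, a DNA-binding partner of PCGF6, was 1.29-fold higher (interval 1.17 to 1.42). Kdm2b and Pcgf1, whose proteins share a complex, differed from P0 in opposite directions.

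PR-DUB removes the ubiquitin that PRC1 places, and KDM6 enzymes remove the PRC2 mark. In the PR-DUB list 1 of 8 measured genes was higher at P2 than at P0 by the interval and 5 were lower, beside 39.6 and 25.7% of all genes. Asxl2 was at 14.8 and 10.9 FPKM at P0 and P2, 1.35-fold lower (interval 1.26 to 1.46), and Asxl1 and Foxk1 were 1.17-fold and 1.15-fold lower. Kdm1b was 1.27-fold higher (interval 1.13 to 1.42), and 9.19% of its exonic bases overlap Dek on the opposite strand. Kdm6b was at 37.9, 27.5 and 27.8 FPKM, 1.36-fold lower at P2 (interval 1.29 to 1.44), and Kdm6a was 1.10-fold lower (interval 1.03 to 1.17).

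**Figure D4:**
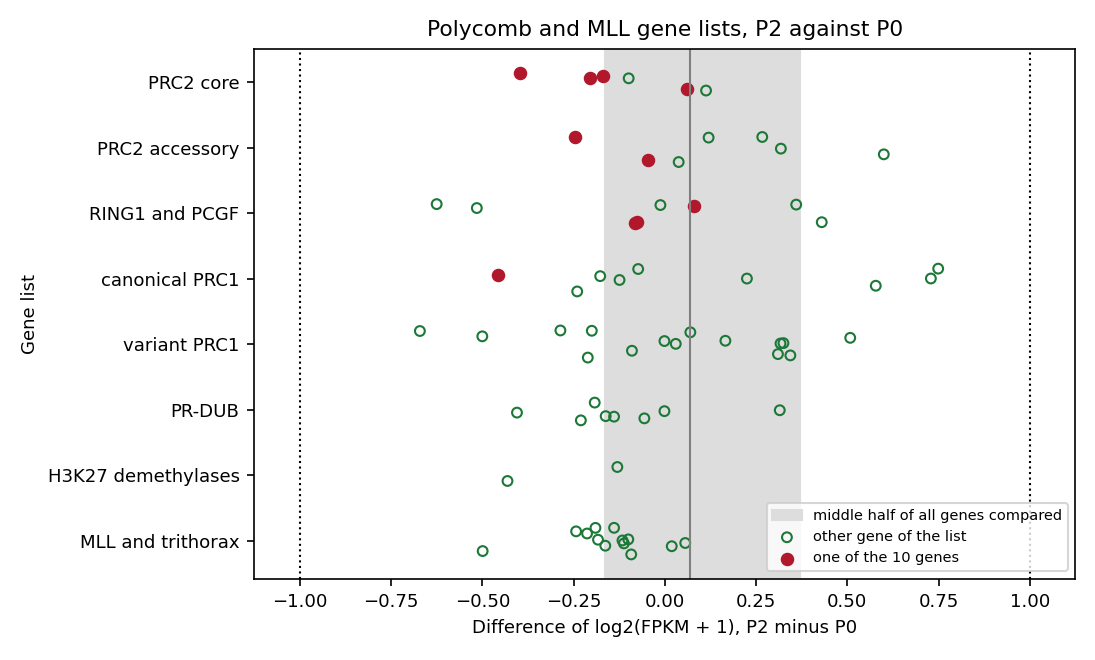
Difference of log2(FPKM + 1) between P2 and P0 for each measured gene of the Polycomb lists and of the MLL and trithorax list, with filled points for the 10 Polycomb genes described here. The grey band spans the central 50% of all genes compared, the grey line their median of 0.07, and the dotted lines the 2-fold rule, which no listed gene reaches.

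MLL complexes methylate lysine 4 of histone H3 and act against Polycomb at shared targets. All 13 listed genes were measured, and 0 rose or fell 2-fold in the 3 comparisons. Among all genes the 2-fold rule called 4.67% between P0 and P1, 7.88% between P0 and P2, and 1.66% between P1 and P2. With shares this small, 0 of 13 does not set the list apart. By the interval, 11 of 13 were lower and 0 higher at P2 than at P0, beside 25.7 and 39.6% of all genes. In the P1 library 9 were lower and 0 higher than at P0, beside 22.6 and 34.5% of all genes. The median difference at P2 against P0 was -0.14, close to the -0.13 of the 10 Polycomb genes. Kmt2c, a methyltransferase of enhancers, was at 22.6, 14.4 and 15.7 FPKM, 1.44-fold lower at P2 (interval 1.36 to 1.53). Ash2l, Cxxc1 and Kmt2d were 1.18-fold, 1.16-fold and 1.15-fold lower.

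A list of 57 developmental regulators known as Polycomb targets in embryonic stem cells was read beside the complex genes. Of these, 16 had at least 1 FPKM at P0 and 27 at P2, and 4 were listed at 0 at P0. Among the 22 compared at P1 against P0, 5 rose and 2 fell 2-fold, beside 4.12% and 0.549% of all genes. Among the 28 compared at P2 against P0, 9 rose (Cdkn2a, Cdkn2b, Cdx2, Gata3, Hand1, Msx2, Neurod1, Nkx2-2 and Nkx2-9) and 1 fell (Olig1), beside 6.72% and 1.16%. Of the 22 and of the 28 genes, only 16 had at least 1 FPKM at P0. The others passed the floor of 1 FPKM only through the later library, so a higher value was built into their choice. Among the genes that rose at P2 against P0, these included Cdkn2b, Cdx2, Gata3, Hand1 and Nkx2-2. The comparison of P2 with P1 has the same limit for genes below 1 FPKM at P1. Over all 57 with no floor, the median difference was 0.07 at P1 against P0 and 0.30 at P2 against P0. Without a floor, the medians of all genes above 0 in either library were 0.049 and 0.053. At P2 against P1, 1 of 27 rose (Msx2), beside 0.78%, and 0 fell, beside 0.883%.

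Of the 9 genes that rose, 7 encode developmental transcription factors and Cdkn2a and Cdkn2b cell cycle inhibitors. Nkx2-9, a homeobox gene of the ventral neural tube, had 73, 382 and 825 reads, 11.7-fold higher in FPKM in the P2 library than at P0 (interval 9.21 to 15.1). Cdkn2b, the p15 cell cycle inhibitor, had 17, 83 and 143 reads (8.72-fold, interval 5.26 to 15.4). Gata3 and Hand1, regulators of trophoblast among other tissues, were 8.98-fold and 8.61-fold higher, from 6 and 26 reads at P0. Neurod1, a neuronal factor with 13.0% of its exonic bases shared with overlapping genes, was 3.45-fold higher (interval 2.88 to 4.14), and Msx2, a homeobox gene, 3.19-fold (interval 2.52 to 4.06). Nkx2-2 was listed at 0 at P0 and had 31 reads at P2. Cdkn2b, Gata3, Hand1 and Nkx2-2 entered the comparison of P2 with P0 only through P2, so a higher value was built into their choice.

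The 4 genes lowest at P2 relative to P0 are described next. Olig1, an oligodendrocyte lineage factor, was at 18.4, 14.3 and 8.61 FPKM and fell 2.13-fold from P0 to P2 (interval 1.90 to 2.40). Its neighbour Olig2 was at 14.0, 8.93 and 6.94 FPKM, a ratio of P2 to P0 of 0.494 (interval 0.436 to 0.560) that missed the rule on log2(FPKM + 1). Pax6 and Sox1, early neural factors, fell at P1, from 4.35 to 1.42 FPKM and from 1.91 to 0.401 FPKM. At P2 they stood at 2.14 and 0.887 FPKM, not past the 2-fold rule. The target list therefore held genes in both directions while the 10 complex genes stayed within 1.38-fold, and a link between these values was not tested.

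**Figure D5:**
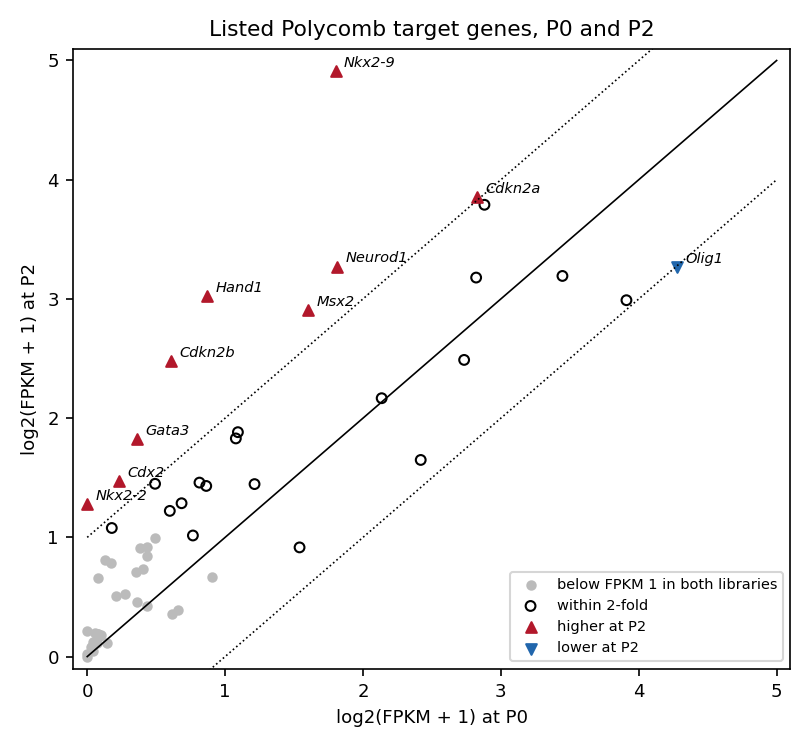
Level of each of the 57 listed Polycomb target genes as log2(FPKM + 1) at P0 (horizontal axis) and P2 (vertical axis), 1 library each. The solid line marks equal levels and the dotted lines a 2-fold difference. Triangles above the upper line are the 9 genes that rose, the triangle at the lower line is Olig1, and grey points were below 1 FPKM in both libraries.

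Markers of other cells and of proliferation were also compared. The summed level of 6 primitive endoderm markers was 132, 265 and 328 FPKM, of which Sparc gave 126, 260 and 321. Gata4, at 3.39, 2.78 and 3.49 FPKM, had an interval that spanned 1 in each comparison. Gata6 was at 0.607, 0.537 and 1.44 FPKM. The feeder sums given above were also higher at P1 and P2, with Thy1 at 4.21, 9.83 and 11.0 FPKM and Col1a1 at 1.98, 5.63 and 7.09. The 7 proliferation genes summed to 2392, 2362 and 2450 FPKM. At P2 against P0, 3 of them were higher by the interval (Pcna, Mcm5 and Ccna2, at ratios of 1.17, 1.16 and 1.10). Another 3 were lower (Mki67, Top2a and Ccnb1, at ratios of 0.631, 0.854 and 0.962). Of all genes, 39.6% were higher and 25.7% lower. Among the stem cell markers Esrrb was the lowest at P2 relative to P0, as given above. The part of these marker differences in the lower Eed and Cbx7 and in the target genes was not tested.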

How the data were processed

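RNA was sequenced from 3 libraries, 1 per passage. FPKM values of 50043 gene IDs were deposited by the authors. Per the submitters' processing notes, Bowtie2 2.0.6 and TopHat2 2.0.9 were used with build mm9. The counter, annotation and strand setting were not given in the sources used here. Because each deposited FPKM value is a whole read number divided by gene length and library total, reads were recovered for 26288 of 26291 IDs above 0 (99.99%, relative tolerance 1e-10). The length was within 1 base of the mean GENCODE M21 transcript for 82.1% of IDs. Each library total was inferred as the value most often obtained when a gene's FPKM was taken as 1 read over its mean M21 length. Where several multiples of a length were possible, the one nearest that mean was used. The match to M21 is therefore partly built in. Symbols, overlaps and chromosomes came from M21 (GRCm38) and promoters from RefSeq (GRCm38.p6). Exonic overlap was not given above for every gene, for example 14.1% for Pou5f1, 12.49% for Ccna2, 9.67% for Nkx2-2 and 7.26% for Olig1.

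Differences are of log2(FPKM + 1), on which a change in a low gene looks smaller than it is, with a call at an absolute difference of 1 and a floor of 1 FPKM in 1 or both libraries. Ratios of FPKM carry exact conditional (Clopper-Pearson) 95% intervals on recovered reads. They cover counting error only, because 1 library per passage leaves no replicate error. Without molecular identifiers a read is not an independent molecule, so the counting error itself may be understated. At P0, 3 reads on a gene of 2 kb are worth 0.0646 FPKM, at P1 0.0831 and at P2 0.0669. With 1 library per passage no test was possible. All 10 genes are named, and of each other list up to 4 genes (6 rises and 4 falls for targets) with the largest difference between P2 and P0. Other genes given with values (Rbbp7, Phc1, Bmi1, Nkx2-2 and the markers) were picked after their values were seen. The pairs of genes whose ratios are given were listed by hand and not by this rule. The members, lists and alternatives were chosen with earlier results of these data known. Alternatives were 0.1 as the pseudocount, no floor or one of 5 FPKM, and scaling by median of ratios, to a sum of 1000000 or by quantiles. Chosen after seeing the data were longest transcripts as lengths, the shortest length that gives whole reads, the same alternatives for single genes and for the target and MLL lists, and scaled intervals. The CBX shares leave out 1 gene that is not reported here. The steps were tested on simulated data. Python 3.11.15, pandas 2.3.3, scipy 1.17.1, numpy 2.4.6 and matplotlib 3.10.9 were used.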

Additional observations from a re-analysis of the deposited data

How the results depend on the processing

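Under every alternative in pseudocount, floor and scaling, 0 of the 10 Polycomb genes differed 2-fold in any comparison, and their median difference kept its sign. Quantile normalization moved the median of all genes at P2 against P0 from 0.07 to -0.05 in log2(FPKM + 1), and the split of genes past 2-fold from 905 higher and 156 lower to 621 and 260. At P1 against P0 the split moved from 548 and 73 to 384 and 129. Relative to the median of all genes, the median of the 10 was -0.20 at P2 against P0 as deposited and -0.12 after quantile normalization. With a pseudocount of 0.1 the wider Polycomb list had 1 gene past 2-fold at P1 against P0, 2 at P2 against P0 and 1 at P2 against P1, in place of 0. Of all genes, 9.44, 13.8 and 4.67% were past 2-fold in these comparisons with that pseudocount. That pseudocount lets genes near 1 FPKM pass, and moved the split at P2 against P1 from 106 and 120 to 370 and 265. Chosen after seeing the data, the target list at P2 against P0 had 19 of 28 genes past 2-fold with that pseudocount. It had 6 of 11 with a floor of FPKM 5, in place of 10 of 28. Beside these, 13.8, 6.3 and 7.88% of all genes were past 2-fold. At P1 against P0 the target list had 3 of 10 with that floor in place of 7 of 22, beside 3.64 and 4.67% of all genes. At P2 against P1 it had 5 of 27 with the pseudocount and 2 of 34 after rescaling, in place of 1 of 27. The shares of all genes were then 4.67, 2.6 and 1.66%. No paired analysis was possible because each passage had 1 library, and for the same reason no replicate could be left out. Counting error limits Ring1, Ezh1 and the low target genes most.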
